A study of Mus musculus with 29 samples.

Results

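The Smarcc1 level that remained in the double conditional knockout (dcKO) cortex was examined in 8 RNA-seq libraries at E17.5, 4 from dcKO embryos of vehicle-treated dams and 4 from dcKO embryos of dams given a Wnt inhibitor (WNTi, ICG-001). They are 8 of the 29 samples of the series, and of its 19 RNA-seq libraries. They were chosen by genotype and experiment, and genes were then ranked by their correlation with the Smarcc1 level, after the mean of each treatment was removed. All animals were of the C57BL/6J strain, and the dcKO embryos carried floxed alleles of Smarcc1 (which encodes BAF155) and Smarcc2 (BAF170) together with hGFAP-Cre. The comparison group was 4 wild-type (WT) vehicle libraries. A further 7 libraries from an experiment without treatment were used to look at direction, 3 with the letter M (replicates 2 to 4) and 4 with the letter C. Their genotype label reads dcKO for both letters, so they are called here by letter.

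The BAF (mSWI/SNF) complexes are chromatin remodelers that use the energy of ATP to move nucleosomes. BAF155 and BAF170 form the scaffold on which the other subunits assemble, and subunits that are not built into a complex tend to be degraded. In the developing pallium the complexes act in radial glia, the neural stem cells, and in the neurons they produce. The hGFAP promoter drives Cre in progenitors of the late pallium. Cortex also holds interneurons that migrate in from the ventral forebrain, vessels, microglia and meninges, in which deletion was not measured here. The tissue label is embryonic cortex, and a level measured in it is an average over all of these cells. Fewer cells of a type and less RNA per cell cannot be told apart in such bulk samples. Reads were counted over the whole gene, so transcripts that lack a deleted exon also add to the level.

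Smarcc1 lies on chromosome 9 from 110132024 to 110240178 and Smarcc2 on chromosome 10 from 128459182 to 128490591 (GRCm38). Levels are given in CPM, the count divided by the library total and scaled to 1e+06. Smarcc1 had 245, 260, 289 and 248 CPM in WT replicates 1 to 4. It had 139, 241, 133 and 138 CPM in dcKO vehicle replicates 1 to 4, which is 53.2%, 92.4%, 51.1% and 52.8% of the WT mean. In the inhibitor group it had 223, 249, 141 and 176 CPM, or 85.6%, 95.6%, 54.3% and 67.7% of the WT mean. The vehicle libraries thus formed a group of 3 close to each other and 1 near the WT level, whereas the inhibitor libraries were spread over the whole interval. The span of the level was nearly the same in both treatments, 107.6 CPM in vehicle and 107.7 CPM in inhibitor libraries. The level of the library labelled dcKO vehicle replicate 2, and of those labelled dcKO inhibitor replicates 1 and 2, goes against what a deletion label implies, and all libraries were kept as labelled.

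Smarcc2, which the rule did not use, followed the same order. It had 448, 687, 425 and 434 CPM in dcKO vehicle replicates 1 to 4, and 671, 688, 421 and 596 CPM in inhibitor replicates 1 to 4. The 3 libraries with the highest Smarcc1 level were inside the WT range of 642 to 837 CPM, and the other 5 were below it. With treatment means removed, r between the level of Smarcc1 and log2 CPM of Smarcc2 was 0.96 over 8 libraries (rho 1, and r 0.93 without the 2 libraries farthest from the median Smarcc1 level). The slope was 0.64 log2 units of Smarcc2 per 100 CPM of Smarcc1 (SE 0.09).

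Prm1, which encodes the sperm protein protamine 1 and whose 3′ end is part of many Cre transgenes, had the opposite order. Whether the hGFAP-Cre transgene holds it is not given in the sources used here. Prm1 had 0.154, 0.150, 0.320 and 0.0752 CPM in WT replicates 1 to 4, from at most 4 reads. It had 29.5, 2.48, 28.1 and 30.7 CPM in dcKO vehicle replicates 1 to 4, and 2.99, 2.84, 12.3 and 8.36 CPM in inhibitor replicates 1 to 4. All 8 dcKO libraries were above the 4 WT libraries. The 3 libraries with a Smarcc1 level near WT had the lowest Prm1 of the dcKO libraries, from 48 to 56 reads each, and r with the Smarcc1 level was -0.97 over 8 libraries (rho -0.93, and -0.98 without the 2 farthest).

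**Figure D1:**
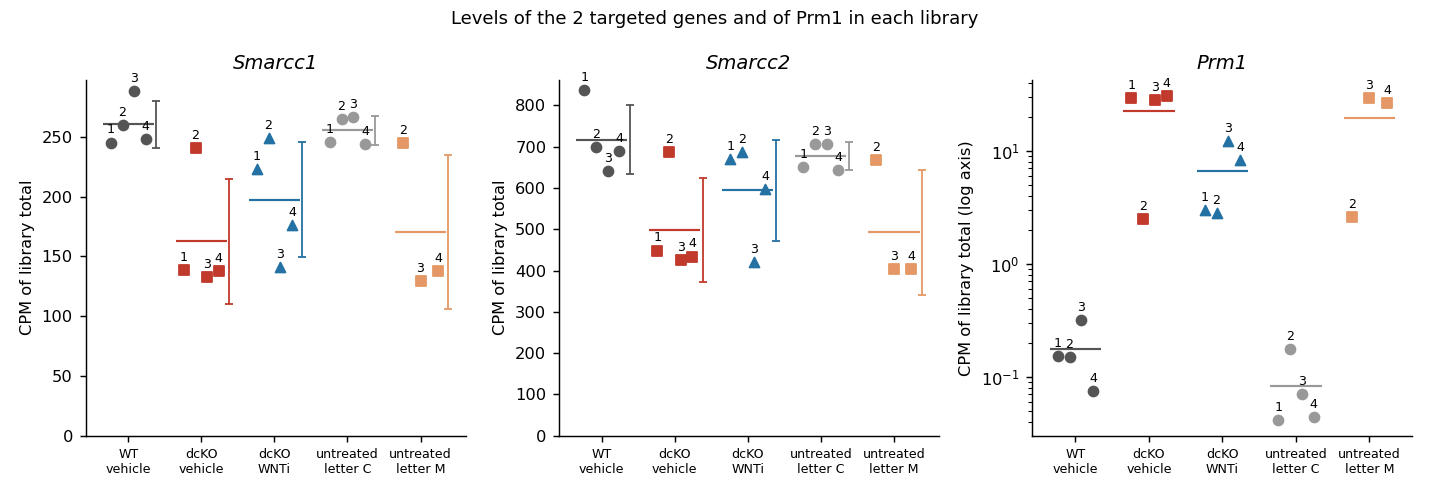
CPM of the library total for Smarcc1, Smarcc2 and Prm1 (log axis) in each of 19 libraries, with the replicate number beside each point, the group mean as a line and the SD as a bar for Smarcc1 and Smarcc2. Replicate 2 of the dcKO vehicle libraries (241 CPM of Smarcc1) and of letter M (245 CPM) stand at the WT level of Smarcc1, and the inhibitor libraries run from 141 to 249 CPM.

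By group, Smarcc1 had 261 ± 19.8 CPM (SD, n = 4) in WT, 163 ± 52.2 CPM (SD, n = 4) in dcKO vehicle and 198 ± 48.0 CPM (SD, n = 4) in dcKO inhibitor libraries. In edgeR's quasi-likelihood test over 12 libraries, with Benjamini-Hochberg adjustment over all genes, the log2 difference from WT was -0.71 in vehicle (SE 0.21, adjusted p = 0.289) and -0.45 in inhibitor libraries (adjusted p = 0.244). For Smarcc2 it was -0.55 (adjusted p = 0.337) and -0.32 (adjusted p = 0.327) in the same edgeR fit. Neither gene therefore passed the threshold of 0.05 in the libraries as labelled. Without dcKO vehicle replicate 2, the edgeR difference of vehicle from WT was -0.97 for Smarcc1 (adjusted p = 0.0085) and -0.76 for Smarcc2 (adjusted p = 0.0174). The inhibitor libraries differed from the vehicle libraries by 0.26 for Smarcc1 (edgeR, adjusted p = 0.553) and by 0.23 for Smarcc2 (adjusted p = 0.542), within the spread between replicates. Of 16372 genes tested, 0.00611% passed between vehicle and WT, 0.0977% between inhibitor and WT and 0.055% between inhibitor and vehicle.

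The libraries held 16060994 to 24635257 counts in dcKO and 12514443 to 26600594 counts in WT, so the counting error of Smarcc1 was small (2876 to 5445 reads in dcKO libraries). Among the inhibitor libraries the 2 of highest Smarcc1 had the lowest totals, 16060994 and 17605497 counts, against 20330225 and 24635257 in replicates 3 and 4. The dcKO libraries came from 3 lanes by their file names, with inhibitor replicates 2 and 3 and vehicle replicates 3 and 4 in the same lane. Xist and Y-linked Ddx3y both differed among them, and dcKO vehicle replicate 1 held both, with 687 CPM of Xist and 19.4 CPM of Ddx3y. The part of depth, lane and sex in the results below was not tested beyond the fits named there.

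The untreated libraries were not independent of the vehicle libraries. Smarcc1 had 245, 130 and 137 CPM in letter M replicates 2, 3 and 4, nearly the values of dcKO vehicle replicates 2, 3 and 4, and Prm1 had 2.59, 29.5 and 26.6 CPM. The deviations of 12463 genes from their group means correlated at 0.80 to 0.89 between letter M and dcKO vehicle libraries of the same number, against -0.76 to 0.20 between those of other numbers. For letter C and WT the range was 0.22 to 0.66 for the same number and -0.44 to 0.20 for others. By this correlation all 7 untreated libraries were most like the treated library of their own number. For letter C replicate 1 the lead was small (0.22 with WT replicate 1, 0.17 with WT replicate 4). Same-numbered libraries differed by more than sampling noise (median chi-square per gene of 2.54 or more). By that measure letter C replicates 1 and 4 had lower values with WT replicate 3 (3.44 and 3.67) than with their own number (21.2 and 7.88). WT replicate 3 had the lowest total, 12514443 counts, and the part of depth in this measure was not tested. Gene tables and lanes differed between the experiments, so this cannot tell whether a library was sequenced or counted again. Whether the untreated libraries come from the same embryos is not given, and a direction found again in them does not count as a second observation.

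In all, 12947 genes had a mean count of at least 50 in the 8 dcKO libraries and were ranked. With treatment means removed, 42% had a positive r with the Smarcc1 level, 173 had r over 0.9 and 174 had r under -0.9. A fit of the slope in edgeR passed an adjusted p under 0.05 for 129 genes with a positive slope, 0.803% of the 16064 tested, and for 73 with a negative slope, 0.454%. These counts rest on the contrast by which the genes were ranked and are a description. They also rest on dcKO vehicle replicate 2, since 0 genes of either sign passed in edgeR without that library (939 positive and 502 negative at an unadjusted p under 0.05), whereas leaving out other single libraries gave 14 to 349 positive and 7 to 216 negative. In the inhibitor libraries alone 0 genes passed in edgeR, with 375 positive and 170 negative at an unadjusted p under 0.05, and in the vehicle libraries alone 806 and 1035 passed. With the library total as a covariate 47 and 29 passed, and with the lane as a block and without inhibitor replicate 4, which is alone in its lane, 29 and 14. Without that library and with no lane term, 29 and 18 passed. With the replicate number as a block, 0 and 0 passed (333 and 395 at an unadjusted p under 0.05).

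The 12 named genes of highest r had values from 0.976 to 0.995, and 9 of them passed the edgeR fit. Cybrd1, a ferric reductase, had 8.57, 20.3, 7.58 and 7.53 CPM in dcKO vehicle replicates 1 to 4 and 15.7, 16.1, 7.03 and 10.6 CPM in inhibitor replicates 1 to 4, against 15.4 to 20.2 CPM in WT. Paqr8, a membrane progestin receptor, had 20.3, 55.5, 20.6 and 23.7 CPM in the vehicle libraries, 45.9, 49.6, 24 and 33.7 CPM in the inhibitor libraries, and 46.7 to 65.3 CPM in WT. In both genes the libraries near the WT level of Smarcc1 were within or next to the WT range, and inhibitor replicate 4, with an intermediate Smarcc1 level, was intermediate. The slope was 1.25 (SE 0.12) log2 units per 100 CPM of Smarcc1 for Cybrd1 and 1.18 (SE 0.11) for Paqr8.

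Rhbdl3, a rhomboid-family gene and a marker of intermediate progenitors, had 13.9, 28, 13.2 and 13.7 CPM in the vehicle and 25, 25.7, 10.9 and 17.4 CPM in the inhibitor libraries, against 23.4 to 29.7 CPM in WT. Its order over the 8 libraries was that of Smarcc1 within each treatment (rho 1). Slc4a4, a sodium bicarbonate cotransporter of glia, had 20.7, 35.1, 21.3 and 21.8 CPM in the vehicle and 29.2, 37.2, 20.7 and 23.8 CPM in the inhibitor libraries. Lrp8, a receptor for reelin in migrating neurons, had 343, 477, 336 and 333 CPM and 390, 460, 291 and 359 CPM, respectively. The range of Lrp8 in WT, 469 to 491 CPM, held 1 of the 8 dcKO libraries. The other genes of this group were Fam111a, a protease that acts in DNA replication (r 0.995), the ubiquitin ligases Nedd4l (0.99) and Trim65 (0.976), the adaptor Gab1, and Fam167a, Itpripl1 and Csmd2. Trim65 was the last gene inside the limit of 12, with r 0.9758, and Veph1 the nearest outside it, with r 0.9756.

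At the other end, the 12 named genes had r from -0.986 to -0.978, and 6 of them passed the edgeR fit. Ppp1r1b, which encodes the protein phosphatase inhibitor DARPP-32, had 132, 42.8, 133 and 133 CPM in dcKO vehicle replicates 1 to 4 and 54.5, 33.9, 99.6 and 69.2 CPM in inhibitor replicates 1 to 4, against 29.5 to 50.4 CPM in WT. Rgs9bp, an anchor of a regulator of G protein signaling, had 18.0, 7.47, 16.5 and 17.8 CPM in the vehicle and 4.05, 3.86, 10.5 and 6.74 CPM in the inhibitor libraries, against 5.08 to 5.51 CPM in WT. Here the libraries with low Smarcc1 were the high ones. The slopes were -1.43 (SE 0.11) for Ppp1r1b and -1.25 (SE 0.15) for Rgs9bp per 100 CPM of Smarcc1.

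Pdgfc, a ligand of the platelet-derived growth factor receptors, had 25, 14.5, 24.1 and 23.9 CPM in the vehicle and 13, 10.9, 23.6 and 17.4 CPM in the inhibitor libraries. The receptor gene Pdgfra, from the list of oligodendrocyte precursors, moved the same way, with 66.7, 33.3, 72.2 and 63.7 CPM and 33.4, 40.5, 56.6 and 52.5 CPM (r -0.92), against 33.6 to 43.3 CPM in WT. That list as a whole did not, since 4 of its 8 ranked genes had a positive r (median -0.02). The remaining genes of lowest r included the Notch ligand Dll4, the TGF-beta mediator Smad3, the heparan sulfate proteoglycan Sdc4, the anticoagulant protein S gene Pros1, the mitochondrial serine transporter Sfxn1, and Minar2, Tm7sf3, Mypop and Zfp438. Pros1 was the last inside the limit, with r -0.978, and Ier5l the nearest outside it, with r -0.977. Without dcKO vehicle replicate 2, the slope kept its sign in 12 of 12 genes at the high end and 12 of 12 at the low end, and the edgeR test passed for 0 of them. The slopes themselves stayed of like size, for instance 1.16 for Cybrd1, 1.18 for Rhbdl3, -0.99 for Pdgfc, -1.37 for Rgs9bp and -1.29 for Ppp1r1b. The choice of genes required the same sign of r in both treatments, so a kept sign is in part fixed by that choice. It also took the most extreme r over the same 8 libraries, so a like size of slope is in part fixed too.

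**Figure D2:**
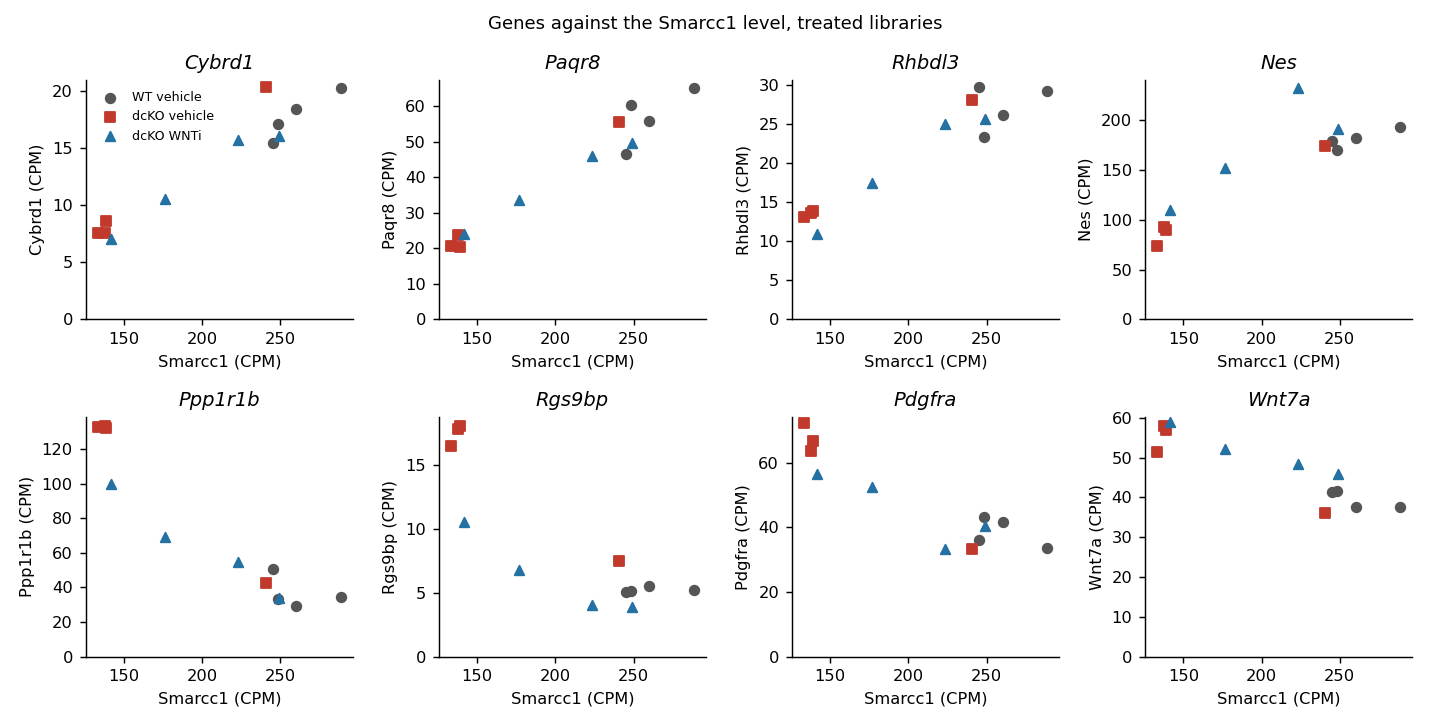
Level of 8 genes (CPM) against the Smarcc1 level (CPM) in the 12 treated libraries, by group. Cybrd1, Paqr8, Rhbdl3 and Nes were low and Ppp1r1b, Rgs9bp, Pdgfra and Wnt7a high in the libraries of lowest Smarcc1, and the inhibitor replicate with 176 CPM of Smarcc1 lies between the ends in most panels.

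Among the other BAF subunits no common direction was seen. Of 25 subunit genes in the list, 8 had a positive r (32.0%, against 42% of all ranked genes), with a median r of -0.26 against -0.09, and Smarcc2 alone passed the edgeR fit. Smarca2, which encodes the ATPase BRM, had 290, 355, 291 and 303 CPM in the vehicle and 331, 328, 308 and 298 CPM in the inhibitor libraries (r 0.89, rho 0.67), and was below the WT range of 366 to 387 CPM in all 8. Ss18, a subunit of the canonical complex, had 44.5, 38.2, 44.3 and 48.3 CPM and 32.8, 38.1, 47.4 and 44.6 CPM (r -0.81), against 30.6 to 35.2 CPM in WT. Actl6b, the neuronal actin-like subunit, had r -0.78 and was inside the WT range in all 8 libraries.

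The lists of pallial cell types held genes of both signs, where 42% of all ranked genes had a positive r. Of 20 radial glia genes 8 had a positive r (median -0.40), and 2 passed the edgeR fit, Nes, the intermediate filament of neural stem cells, and Aldoc, a glycolytic enzyme of astroglia. Nes had 90.1, 174, 73.6 and 92.9 CPM in the vehicle and 233, 192, 110 and 152 CPM in the inhibitor libraries, against 171 to 193 CPM in WT. Inhibitor replicate 1 was above the WT range. Aldoc had 39.3, 125, 32.2 and 32.6 CPM in the vehicle and 148, 84.7, 59.7 and 74.2 CPM in the inhibitor libraries, so that the lowest inhibitor library was above the 3 low vehicle libraries. Hes5 and Ttyh1 of the same list had negative r (-0.89 and -0.93).

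Of 10 intermediate progenitor genes 7 had a positive r (median 0.41), and Mfng, a modifier of Notch receptors, Sstr2, a somatostatin receptor, and Rhbdl3 passed the edgeR fit. Mfng had 12.2, 31.3, 10.4 and 13.6 CPM in the vehicle and 39.5, 29.9, 17 and 26.3 CPM in the inhibitor libraries, against 22.7 to 32.4 CPM in WT. Eomes (TBR2), the defining transcription factor of these cells, had 54.3, 152, 44.5 and 60.4 CPM in the vehicle libraries but 83.7, 109, 80.8 and 92.6 CPM in the inhibitor libraries. The relation of Eomes to Smarcc1 therefore rested on the vehicle libraries, and r fell from 0.81 to 0.13 without the 2 libraries farthest from the median level. In the inhibitor libraries alone 4 of the 10 genes had a positive r, against 41.9% of all ranked genes.

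Of 12 upper-layer genes 10 had a positive r (median 0.55), and of 12 deep-layer genes 9 did (median 0.57), against 42% of all ranked genes. Fezf2 and Sox5, transcription factors of deep-layer neurons, passed the edgeR fit. Fezf2 had 58.0, 173, 56.7 and 59.4 CPM in the vehicle and 117, 98.9, 80.5 and 95 CPM in the inhibitor libraries, against 110 to 138 CPM in WT. The 3 low vehicle libraries lay below every inhibitor library. In the inhibitor libraries alone the median r was 0.09 for the upper-layer and 0.10 for the deep-layer list. The pan-neuronal list had 10 of 15 positive r (median 0.06), and the hippocampal list 7 of 10 (median 0.39), in which Lhx2, a regulator of pallial identity, had 98.7, 243, 104 and 119 CPM in the vehicle and 195, 174, 154 and 176 CPM in the inhibitor libraries.

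Cell cycle lists gave no shared sign in the 2 treatments. Of 18 S phase genes 15 had a positive r in the vehicle and 2 in the inhibitor libraries, and of 20 genes of G2 and mitosis 18 and 8 did. Of all ranked genes 49.6% and 41.9% did, so the 8 of 20 genes of G2 and mitosis were near the background. Over the 8 libraries, 7 of the 18 and 16 of the 20 genes had a positive r, against 42% of all ranked genes. Of 10 Wnt target and feedback genes 6 had a negative r in the 8 libraries (median -0.55), close to the 58.0% of all ranked genes, and 0 passed the edgeR fit. The 4 with a positive r were Znrf3 (0.53), Tcf7 (0.32), Apcdd1 (0.13) and Tnfrsf19 (0.73), named after their values were seen. The feedback inhibitor Axin2 had 49.0, 32.4, 46.7 and 45.9 CPM in the vehicle and 26.2, 32.1, 35.6 and 43.8 CPM in the inhibitor libraries, against 24.4 to 32.2 CPM in WT. The Wnt antagonist Sfrp1 had 230, 175, 226 and 240 CPM and 125, 140, 255 and 231 CPM, against 108 to 147 CPM in WT. Among the inhibitor libraries, Sfrp1 was inside the WT range in replicates 1 and 2, which had Smarcc1 near WT, and above it in replicates 3 and 4. The ligand gene Wnt7a had 56.9, 36.1, 51.5 and 58.0 CPM and 48.5, 46.0, 59.0 and 52.3 CPM (r -0.93). Of 5 Wnt ligand genes 2 had a positive r, near the 42% of all ranked genes, and 0 passed the edgeR fit. Wnt8b, of the same list, had r 0.87. The tight junction gene Ocln had 10.04, 4.91, 9.15 and 9.85 CPM and 4.73, 5.79, 6.00 and 6.62 CPM (r -0.80).

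The gene lists of the study itself separated the dcKO libraries near the WT level of Smarcc1 from the other dcKO libraries. Their scores did not follow the order of the level throughout. The study chose them for their difference between letters M and C, so their direction there, and in the same-numbered vehicle libraries, is no independent evidence. The inhibitor libraries did not enter that choice. Of 73 ranked genes of the list of proliferation genes higher in dcKO, 73 had a negative r over the 8 libraries (median -0.78), and in the inhibitor libraries alone 72 did, against 58.1% of all ranked genes. Of 34 Wnt genes 33 had a negative r (median -0.79), and 33 in the inhibitor libraries alone. All 12 Wnt target genes had a negative r in the 8 libraries and in the inhibitor libraries alone. Of 106 neurogenesis genes lower in dcKO, 103 had a positive r (median 0.58), and 101 in the inhibitor libraries alone, against 41.9% of all ranked genes. The proliferation list shares genes with both Wnt lists, and Smarcc2 itself is on the neurogenesis list, so these counts are not separate observations.

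As a score, the mean log2 CPM over the list minus its mean in WT, the proliferation genes stood at 0.88, 0.34, 0.87 and 0.91 in dcKO vehicle replicates 1 to 4 and at -0.01, 0.22, 0.75 and 0.73 in inhibitor replicates 1 to 4. The WT libraries lay between -0.02 and 0.03. The Wnt target score was 1.04, 0.35, 1.06 and 1.10 in the vehicle and -0.06, 0.33, 1.01 and 1.01 in the inhibitor libraries. In both scores, inhibitor replicates 3 and 4 were close to the 3 low vehicle libraries and inhibitor replicates 1 and 2 close to WT or to vehicle replicate 2. The neurogenesis score was -0.34, -0.18, -0.37 and -0.41 in the vehicle and -0.27, -0.14, -0.61 and -0.45 in the inhibitor libraries, with WT from -0.15 to 0.09. The score of the 20 genes of G2 and mitosis did not follow that of the study's proliferation list. It was 0.05, 0.24, -0.12 and 0.11 in the vehicle and 0.13, 0.24, 0.19 and 0.40 in the inhibitor libraries. Its WT values ran from -0.19 to 0.33.

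**Figure D3:**
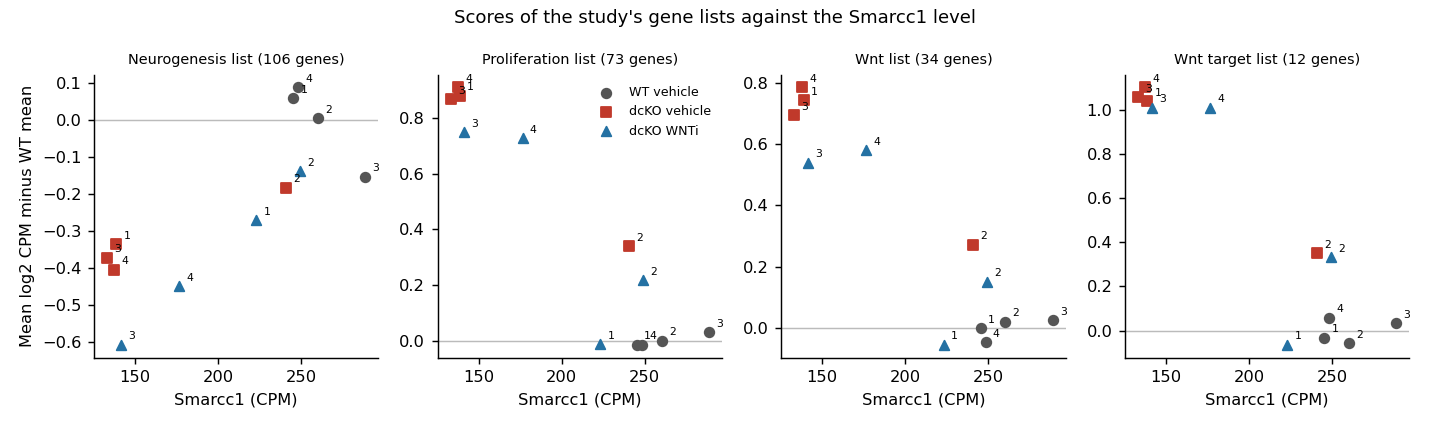
Scores of 4 gene lists of the study (mean log2 CPM minus the WT mean) against the Smarcc1 level (CPM) in the 12 treated libraries, with replicate numbers. The proliferation score of the inhibitor libraries was -0.01 and 0.22 at the 2 higher Smarcc1 levels and 0.75 and 0.73 at the 2 lower ones.

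Wnt2b, a Wnt ligand of the medial pallium, had 11.9, 5.22, 11.1 and 11.4 CPM in the vehicle and 2.68, 4.94, 5.02 and 7.23 CPM in the inhibitor libraries (r -0.71, and -0.41 in the inhibitor libraries alone), against 2.96 to 4.91 CPM in WT.

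To use libraries apart from each other, genes were chosen by the difference between dcKO vehicle and WT libraries, and their slope on Smarcc1 was then read in the inhibitor libraries, which had no part in the choice. This check was added after the data had been seen. Of the 500 ranked genes of smallest p that were lower in dcKO vehicle libraries, 481 (96.2%) had a positive slope in the inhibitor libraries, against 41.9% of all ranked genes. Of the 500 that were higher, 479 (95.8%) had a negative slope, against 58.1%. The median slope was 0.42 and -0.43 log2 units per 100 CPM of Smarcc1, respectively, against -0.05 for all genes. Relative to the mean of the inhibitor libraries, the median of the lower genes was 0.18, 0.17, -0.23 and -0.11 on the log2 scale in replicates 1 to 4, and that of the higher genes -0.17, -0.22, 0.22 and 0.19. Genes lower in the dcKO vehicle libraries were thus higher in the 2 inhibitor libraries with Smarcc1 near WT, and genes higher in the vehicle libraries were lower there.

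The counts were 448 to 467 and 448 to 484 when each inhibitor library was left out. They were 444 and 442 for inhibitor replicates 2 and 3 alone, which share a lane, and 475 and 453 when the genes were chosen without dcKO vehicle replicate 2. With that library left out, edgeR called 528 genes lower (3.25%) and 386 higher (2.38%) in dcKO vehicle than in WT. Of the 433 lower ones that were ranked, 412 had a positive slope in the inhibitor libraries, and of the 319 higher ones 300 had a negative slope. With all 4 vehicle libraries in the edgeR fit of these 2 groups, 0 ranked genes passed (at an unadjusted p under 0.05, 790 lower and 673 higher). Genes are not independent of each other, and each slope in the inhibitor libraries rests on 4 values.

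**Figure D4:**
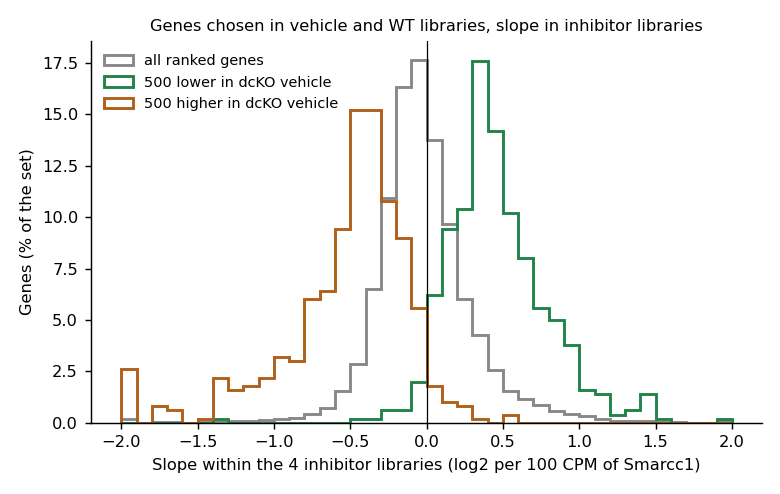
Distribution of the slope on the Smarcc1 level within the 4 inhibitor libraries (log2 per 100 CPM of Smarcc1, with values beyond the axis in the end bins) for all ranked genes, the 500 lower and the 500 higher in dcKO vehicle than in WT libraries. The medians lie at -0.05, 0.42 and -0.43.

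A ranking made in one treatment alone was also read in the other. Over all ranked genes, the sign of r in the vehicle and in the inhibitor libraries was the same for 49.8%. Of the 100 genes of highest r in the vehicle libraries 68 had a positive slope in the inhibitor libraries, against 41.9% of all ranked genes. Of the 100 of lowest r 57 had a negative slope, against 58.1% of all ranked genes, so the low end stood at the background. In reverse, of the 100 genes of highest r in the inhibitor libraries 45 had a positive slope in the vehicle libraries, against 49.6% of all ranked genes, and of the 100 of lowest r 65 had a negative one. Of 746 genes called with a positive slope in the vehicle libraries alone 78.4% kept the sign in the inhibitor libraries, and of 979 called with a negative slope 48.3% did, below the background of 58.1%. In the vehicle libraries a slope is in effect the contrast of replicate 2 with the other 3, and what else sets that library apart cannot be told apart from its Smarcc1 level there.

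The test of the difference of slopes between treatments passed for 49 of 16064 genes in edgeR (0.305%). It passed for 0 genes without dcKO vehicle replicate 2 (46 at an unadjusted p under 0.05) and for 0 without replicate 1 (970). Six3, a homeobox gene of the developing striatum, was among the 49 (adjusted p = 0.0398 in edgeR). It had 10.04, 0.575, 12.2 and 14.8 CPM in the vehicle and 18.1, 30.2, 23.5 and 29.3 CPM in the inhibitor libraries, against 6.79 to 11.8 CPM in WT. The mean over the 10 striatal genes also separated vehicle replicate 2 from the inhibitor libraries, a difference that was not tested for the list. The score was 0.20, -1.57, 0.30 and 0.11 in dcKO vehicle replicates 1 to 4, and 0.92, 1.51, 1.12 and 1.22 in inhibitor replicates 1 to 4, with WT from -0.39 to 0.34. The score was therefore low in dcKO vehicle replicate 2 and high in all inhibitor libraries. Of the 10 genes, 8 had a negative r over the vehicle and 4 over the inhibitor libraries, and the dopamine receptor gene Drd1 had a positive r of 0.74 over the 8 libraries. Of all ranked genes, 49.6% had a positive r over the vehicle and 41.9% over the inhibitor libraries.

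Other lists moved with the level in part. Of 14 interneuron genes 13 had a negative r over the vehicle and 9 over the inhibitor libraries, and the score was 0.36, -0.42, 0.49 and 0.40 in the vehicle and 0.28, 0.51, 0.48 and 0.60 in the inhibitor libraries, with WT from -0.21 to 0.16. Dlx1, a transcription factor of interneurons, had 174 CPM in vehicle replicate 2 and 272 to 279 CPM in the other 3. The phagocytic response score was 0.996, 0.33, 1.01 and 0.64 in the vehicle and 0.78, 0.02, 0.39 and 0.41 in the inhibitor libraries, with Spp1 at 23.7, 7.16, 23.8 and 15.2 CPM and 9.96, 3.52, 7.87 and 8.20 CPM. The choroid plexus score was -0.20, -0.86, -0.09 and -0.24 in dcKO vehicle replicates 1 to 4, lowest in replicate 2, and 0 of 5 genes had a positive r there. In inhibitor replicates 1 to 4 the score was 3.35, 1.83, 2.94 and 0.04, not in the order of Smarcc1, and 2 of 5 genes had a positive r. The choroid plexus transporter Ttr had 836, 145 and 453 CPM in inhibitor replicates 1 to 3, and 3.86 to 5.79 CPM in the other 5 dcKO libraries. For red blood cells 0 of 5 genes, for microglia 1 of 11 and for astrocytes 3 of 9 had a positive r in the vehicle libraries, against 5, 10 and 4 in the inhibitor libraries. For all lists of this paragraph the background is 49.6% of ranked genes with a positive r in the vehicle and 41.9% in the inhibitor libraries. The part of these other tissues in the gene slopes was not tested.

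**Figure D5:**
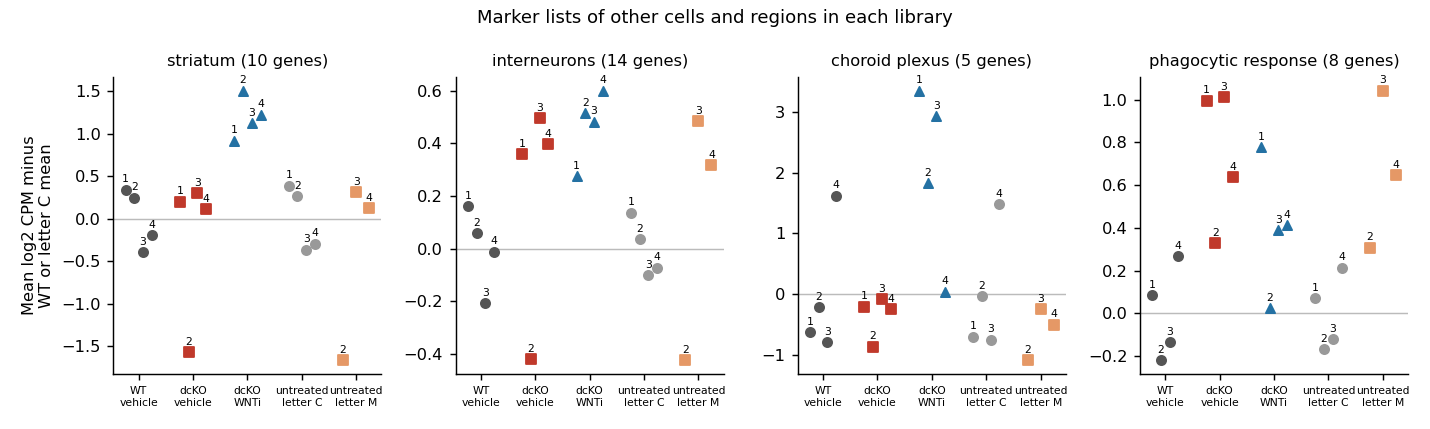
Scores of 4 marker lists (mean log2 CPM minus the mean of WT or of letter C) in each of 19 libraries, with replicate numbers. The striatal score was -1.57 in dcKO vehicle replicate 2 and from 0.92 to 1.51 in the inhibitor libraries, and the choroid plexus score was highest in inhibitor replicates 1 to 3.

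The Smarcc1 level also differed among the WT libraries, from 245 to 289 CPM. In the edgeR fit over 12 libraries, 430 genes had a positive and 834 a negative slope within WT, of 16371 tested. These are more than the 129 and 73 of 16064 called in the 8 dcKO libraries, although nothing is deleted in WT. A call on the Smarcc1 level is therefore not particular to dcKO libraries. The WT slopes rest on 4 libraries. A test of the difference between the slope in dcKO and that in WT passed for 969 of 16371 genes in edgeR (5.92%), but for 0 when WT replicate 1, WT replicate 3, dcKO vehicle replicate 3 or dcKO vehicle replicate 4 was left out (552 to 4446 at an unadjusted p under 0.05), and for 24 without WT replicate 2. WT replicate 3 had both the highest Smarcc1 level and the lowest total, 12514443 counts. Pdgfc was the gene with per-library values here that passed (adjusted p = 0.0255 in edgeR), with 23.2 CPM in WT replicate 3 and 10.5 to 12.3 CPM in the other 3 WT libraries.

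Since the inhibitor libraries had on average more Smarcc1, the comparison of the 2 treatments was also fitted with the level as a covariate, an alternative added after the data had been seen. Without it, edgeR called 7 genes higher and 2 lower in the inhibitor libraries, and with it 0 and 0 (1063 and 1083 at an unadjusted p under 0.05). The differences of the 9 genes themselves moved little, as for the Wnt antagonist Sfrp5 from 2.1 to 1.99 on the log2 scale (adjusted p = 0.0194 and 0.0595 in edgeR) and for the transcription factor gene Foxp1 from 0.76 to 0.71 (adjusted p = 0.0263 and 0.0595 in edgeR). The median log2 difference of the proliferation list moved from -0.23 to -0.05, that of the Wnt target list from -0.17 to 0.00 and that of the Wnt list from -0.32 to -0.15, against 0.01 and 0.01 for all ranked genes. The median of the neurogenesis list moved from -0.03 to -0.13. The direction of these shifts was fixed beforehand. The lists had r of mostly the same sign with the level, and the inhibitor libraries had the higher mean level. The shifts are therefore a description and cannot separate the inhibitor from the level. The difference was -0.35 without and -0.19 with the level for Axin2, and -0.996 and -0.68 for Wnt2b, none of these past the threshold in edgeR.

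In the letter M libraries, 98 of the 100 ranked genes of highest r had a positive slope on Smarcc1 and 99 of the 100 of lowest r a negative one, where 47.9% of all 12627 ranked genes with counts there were positive. Of the 12 named genes at each end, 12 and 12 kept their sign. Cybrd1 had 23.4, 7.56 and 8.85 CPM in letter M replicates 2, 3 and 4, Paqr8 51.8, 19.6 and 21.4 CPM and Ppp1r1b 31.6, 99.9 and 102 CPM, each close to the vehicle library of the same number. A fit over the 7 untreated libraries called 452 genes with a positive slope (2.87%) and 537 with a negative one (3.41%) in edgeR, and 3 and 3 without letter M replicate 2. Since these libraries share their deviations with the vehicle libraries that ranked the genes, the shares describe the same pattern once more.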

How the data were processed

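RNA was measured in 19 libraries of E17.5 cortex, made with a kit that does not mark strand. The authors mapped the reads to mm10 (GRCm38) with STAR, counted them per Ensembl gene with featureCounts and deposited raw counts without normalization. The version of the gene annotation is not given in the sources used here. The treated and untreated tables list 48709 and 38355 genes, of which 36831 are shared. The untreated table also has 5 summary lines, all at 0, which were left out. Peak lists of the series were not used.

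Groups were taken from the sample labels. The labels do not say whether libraries came from separate litters, so p-values measure the spread between these samples, which may in part be technical. The level of Smarcc1 was its count divided by the library total. Genes with a mean count of at least 50 in the 8 dcKO libraries were ranked by Pearson's r of log2 CPM (prior count 2) with this level, after each treatment mean was removed. The fits of the counts used edgeR 4.0.16 under R 4.3.3 (TMM, filterByExpr, robust quasi-likelihood test, Benjamini-Hochberg adjustment), with treatment or group and the level as terms and Smarcc1 itself left out of the genes tested for a slope. DESeq2 1.42.0, which the authors used, was an alternative, beside other size factors, no filter on low counts, a replicate block, a depth covariate, a lane block and each library left out. The fits were tested on simulated counts with independent genes, 1 dispersion for all genes and no deviating library. That check therefore does not cover the weight of single libraries in these data. Of 200 changed genes, 200 were recovered for the slope in 8 dcKO libraries and 144 for the slope in 7 untreated libraries. For vehicle against WT 199 of 200 were recovered, and there were 8, 8 and 10 false calls, respectively. Python 3.11.15, pandas 2.3.3, numpy 2.4.6, scipy 1.17.1 and matplotlib 3.10.9 were used for the other steps.

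The members and gene lists were chosen with earlier results of these data known. Genes were named as the 12 of highest and of lowest r with the same sign in both treatments and a gene name that is not a predicted or clone name. From each list, the 4 of largest r in size and the defining gene were added, with the targeted genes, the 4 BAF subunits of largest r in size, and Prm1. Sfrp5 and Foxp1 were named beyond this rule, after their values were seen. Some single genes that meet the rule are not reported here and stay in the lists and counts. Same-numbered treated libraries of different groups did not all deviate together (correlation -0.28 to 0.53), so numbers were not taken as pairs. The highest values were those of WT replicate 1 with inhibitor replicate 1 (0.53) and with dcKO vehicle replicate 1 (0.52). Positions are from the RefSeq annotation of GRCm38.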

Additional observations from a re-analysis of the deposited data

Results flagged for a closer look

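In groups of 4 libraries, 1 library was set apart from the rest by Dixon's ratio (above its 95% critical value) in 33 of 135 sets of values. Chance alone sets about 1 in 20 apart, and 28 of the 33 were dcKO vehicle replicate 2. Genes ranked on the Smarcc1 level were chosen by a measure in which this library is decisive, so their share among these values says nothing more. In dcKO vehicle replicate 2, Smarcc1 stood at 241 CPM, Smarcc2 at 687 CPM and Prm1 at 2.48 CPM, apart from the other 3 vehicle libraries. Among the genes of high r, the same library stood apart with Fam111a at 14.2, Slc4a4 at 35.1, Itpripl1 at 17.4, Cybrd1 at 20.3, Lrp8 at 477, Paqr8 at 55.5 and Rhbdl3 at 28 CPM. Among those of low r it did so with Ppp1r1b at 42.8, Minar2 at 59.6, Dll4 at 7.21, Sdc4 at 2.52, Pdgfc at 14.5 and Rgs9bp at 7.47 CPM. From the cell type lists it had Aldoc at 125, Eomes at 152, Mfng at 31.3, Fezf2 at 173, Sox5 at 239, Lhx2 at 243 and Dlx1 at 174 CPM, and from the Wnt ligand list Wnt2b at 5.22 CPM. Its list scores stood apart for proliferation (0.34), Wnt targets (0.35), striatum (-1.57) and interneurons (-0.42).

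The 5 values of other libraries were Pdgfc at 23.2 CPM and Axin2 at 24.4 CPM in WT replicate 3, Fezf2 at 138 CPM in WT replicate 1, Sox5 at 193 CPM in dcKO inhibitor replicate 2, and Ttr at 111 CPM in WT replicate 4. For the WT and inhibitor groups, this number is near the share that chance alone sets apart.

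The slope of Pdgfc on Smarcc1 differed between dcKO and WT libraries (edgeR, adjusted p = 0.0255), and that of Six3 between the inhibitor and vehicle libraries (edgeR, adjusted p = 0.0398). Of 16371 and 16064 genes tested, 969 and 49 passed these tests. Without dcKO vehicle replicate 2, the test between inhibitor and vehicle slopes passed for 0 genes.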

How the results depend on the processing

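The differences of Smarcc1 and Smarcc2 between groups kept their direction under all 17 alternatives each. Adjusted p lay between 0.0085 and 0.83 for Smarcc1 and between 0.0174 and 0.850 for Smarcc2 in vehicle against WT, and stayed above 0.05 for the other comparisons. With each library left out, the vehicle difference from WT lay between -0.97 and -0.63 for Smarcc1 and between -0.76 and -0.48 for Smarcc2, and both passed only without dcKO vehicle replicate 2. With the replicate block they were -0.77 and -0.58, and neither passed (edgeR, adjusted p = 0.132 and 0.143).

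The number of genes called on the Smarcc1 level was 129 positive and 73 negative. It was 327 and 223 in DESeq2, 178 and 110 without the filter on low counts, 0 and 0 with the replicate block (333 and 395 at an unadjusted p under 0.05), 47 and 29 with the library total as a covariate, and 29 and 14 with the lane as a block and without inhibitor replicate 4, which is alone in its lane (29 and 18 without that library and with no block). It was 806 and 1035 in the vehicle and 0 and 0 in the inhibitor libraries alone. Leaving out single libraries gave 0 to 349 and 0 to 216. The slopes that differed between treatments (49 genes) became 133 without the filter, 236 in DESeq2 and 0 to 1382 with single libraries left out, the highest without inhibitor replicate 1. Those that differed between dcKO and WT (969) became 2574 in DESeq2 and 0 to 2497. In the untreated libraries, 452 and 537 became 184 and 224 with the replicate block, and 3 to 510 and 3 to 688 with single libraries left out. The calls between treatments, 7 and 2, became 0 and 0 with the Smarcc1 level as a covariate. The cause was not tested for these changes. Replicate numbers were not taken as pairs within the treated experiment, but same-numbered libraries had higher median correlations than others. The medians were 0.17 against -0.03 for dcKO vehicle and inhibitor libraries. They were 0.05 against -0.10 for dcKO vehicle and WT, and 0.15 against -0.07 for inhibitor and WT libraries.

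The vehicle-alone, inhibitor-alone and covariate fits and the check of vehicle-chosen genes in the inhibitor libraries were chosen after seeing the data. The counts of that check (481 and 479 of 500) were 481 and 469 with TMM, 481 and 479 with a prior count of 0.5, and 448 to 475 and 448 to 484 with single libraries left out. In the WT libraries, which helped to choose the genes, 154 of the lower genes had a positive slope (30.8%, against 46.1% of all ranked genes) and 280 of the higher genes a negative one (56%, against 53.9%). Of 154 named genes, r changed sign in 23 without dcKO vehicle replicate 2, in 24 with the replicate block, in 23 in the inhibitor and 9 in the vehicle libraries alone, in 3 with Spearman's rho, in 0 with TMM or the other prior count and in 0 to 5 with any other library left out. The 4 values per treatment limit each slope, and counting error limits only genes of low counts.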

Other observations

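The 8 dcKO libraries also differed in lists that the report gives only in part. The meningeal fibroblast score was 0.12, -0.62, -0.37 and 0.84 in inhibitor replicates 1 to 4 and -0.79 to -0.28 in the vehicle libraries, while the WT libraries ran from -0.93 to 0.86 on their own. Of 9 tight junction genes 8 had a negative r with Smarcc1, and the score was 0.28, -0.02, 0.32 and 0.30 in the vehicle and -0.13, -0.02, 0.14 and 0.13 in the inhibitor libraries. The 5 Wnt ligand genes scored 0.59, 0.35, 0.41 and 0.53 in the vehicle and 0.02, 0.13, 0.20 and 0.32 in the inhibitor libraries, with WT from -0.16 to 0.26. Of these 5 genes 2 had a positive r over the 8 libraries. Of 7 immediate early genes 6 had a negative r, and of 12 p53 target genes 6 did, with a median r of 0.00. Cajal-Retzius genes had 1 positive r of 8 in the vehicle and 8 of 8 in the inhibitor libraries. Of all ranked genes, 42% had a positive r over the 8 libraries, 49.6% in the vehicle and 41.9% in the inhibitor libraries. For oligodendrocyte precursors (4 of 8 positive), endothelium and pericytes (5 of 11) and thalamus (1 of 4, Prokr2), the medians of r were -0.02, -0.20 and -0.38.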
